A study of Homo sapiens with 2 samples.

Results

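The genes described here are 10 members of the matrix metalloproteinase (MMP) system: the proteases MMP1, MMP2, MMP3, MMP7, MMP9, MMP10 and MMP14, and the tissue inhibitors of metalloproteinases TIMP1, TIMP2 and TIMP3. They were taken by symbol from GENCODE release 44, and all 10 were among the 58735 Ensembl identifiers of each count table. The RNA came from MCF10a-Snail-ER cells, a non-tumorigenic human mammary epithelial line that stably carries the repressor Snail fused to the estrogen receptor. For both libraries the cells had received tamoxifen at 100 nM over 1 day, which sets off an epithelial-to-mesenchymal transition (EMT), in medium with 5% horse serum, 20 ng/ml EGF, 0.5 µg/ml hydrocortisone, 100 ng/ml cholera toxin, 10 µg/ml insulin and 2 mM L-glutamine. One was a direct RNA library read on a Nanopore MinION, in which native polyadenylated strands are read directly. The other was an Illumina TruSeq stranded mRNA library, made from fragments that are copied to cDNA and amplified. Each platform has 1 library, from treated cells, with no replicate, so the data hold 1 comparison, between the libraries, and nothing here measures a response to tamoxifen. Intervals are 95% exact (Clopper-Pearson) intervals and, like the tests, cover counting error only.

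MMPs are zinc-dependent proteases that cut collagens, laminins, fibronectin and cell-surface proteins, and most are secreted as inactive proenzymes. TIMPs are small secreted proteins that block the active site of MMPs. In EMT, MMPs are known for opening the basement membrane and for shedding adhesion proteins such as E-cadherin, and several of their promoters respond to AP-1, the dimer of FOS and JUN family proteins.

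Counts summed to 403235 by Nanopore and 191741714 by Illumina, a 476-fold difference. Scaled to a total of 1000000 (counts per 1000000, CPM), a single count stood for 2.48 CPM in the Nanopore and 0.00522 CPM in the Illumina library. The 8 basal mammary epithelial markers were all detected in both libraries, with sums of 3668 (Nanopore) and 3472 CPM (Illumina). The 7 luminal markers summed to 689 and 553 CPM, mostly from KRT8 and KRT18, and PGR was listed at 0 in both. Of 8 fibroblast markers Nanopore detected 2, and the summed level of the list was 27.3 CPM (Nanopore) and 34.1 CPM (Illumina), of which DCN held 24.8 and 26.5 CPM. The 4 endothelial markers summed to 2.48 and 6.61 CPM. Of the 6 leukocyte markers, CD3E and MS4A1 were listed at 0 in both libraries and PTPRC had 0 Nanopore and 2 Illumina counts, while CD68 and CD14 held nearly all of the 44.6 and 56.1 CPM. In bulk RNA, few cells with much of a transcript and many cells with little of it cannot be told apart.

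The member transcripts were dominated by inhibitor RNA. Together the 10 genes held 701 Nanopore counts, 0.174% of that library (0.161 to 0.187%), and 633752 Illumina counts, 0.331% (0.330 to 0.331%). By Nanopore, 676 of the 701 came from the 3 TIMP genes, 96.4% (94.8 to 97.7%). By Illumina, 601747 did so, 94.9% (94.9 to 95.0%). After division of the Illumina counts by transcript length, described below, the TIMP share was between 98.0% and 98.8%. TIMP1 alone held 90.3% (87.9 to 92.4%) of the member counts by Nanopore and 92.4% (92.3 to 92.5%) by Illumina. On the protease side MMP14 held 24 of 25 Nanopore MMP counts, 96.0% (79.6 to 99.9%), and 29684 of 32005 Illumina MMP counts, 92.7% (92.5 to 93.0%). Both libraries thus put a single inhibitor and a single membrane-bound protease far above the other members of their class.

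The promoter sequences below are of the inhibitor and the protease with the most Illumina counts, TIMP1 and MMP14, and of the 2 members with the fewest, MMP7 and MMP10. They are the 150 bases before the RefSeq start (GRCh38.p14), 5′ to 3′ on the gene's strand. Capitals mark TGAGTCA (the AP-1 element), CAGGTG (an E-box bound by Snail), TATAAA (the TATA box) and GGGCGG (the GC box) or their reverse complements, searched on both strands in the 250 bases before the start.

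TIMP1 (chrX:47582286-47582435, plus strand): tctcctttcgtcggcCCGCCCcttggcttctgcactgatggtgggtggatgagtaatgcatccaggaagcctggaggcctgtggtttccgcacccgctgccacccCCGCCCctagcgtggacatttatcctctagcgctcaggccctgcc

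MMP14 (chr14:22836435-22836584, plus strand): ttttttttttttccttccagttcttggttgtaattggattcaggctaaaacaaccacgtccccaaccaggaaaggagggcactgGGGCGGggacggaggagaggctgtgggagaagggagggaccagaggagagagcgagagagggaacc

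MMP7 (chr11:102530748-102530897, minus strand): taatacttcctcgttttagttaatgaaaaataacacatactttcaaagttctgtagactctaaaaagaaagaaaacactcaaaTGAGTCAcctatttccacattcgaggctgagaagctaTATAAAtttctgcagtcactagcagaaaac

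MMP10 (chr11:102780629-102780778, minus strand): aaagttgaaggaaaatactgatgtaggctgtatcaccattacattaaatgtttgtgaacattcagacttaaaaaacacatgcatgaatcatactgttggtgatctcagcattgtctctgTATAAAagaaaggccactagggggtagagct

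The promoter table held an entry for TIMP1, TIMP3, MMP7, MMP10 and MMP14 (5 of 10 members) and none for MMP1, MMP2, MMP3, MMP9 or TIMP2. TGAGTCA was found only in the MMP7 promoter of these 5, from 67 to 61 bases before the start. It was present in 4.20% of the 35116 promoter windows of the table. TATAAA stood 30 to 25 bases before the start of MMP7 and 31 to 26 bases before that of MMP10, and 10.7% of all windows held it. GGGCGG occurred in the windows of TIMP1 (2 matches), TIMP3 (5 matches) and MMP14 (1 match), against 42.6% of all windows. CAGGTG was in none of the 5, against 17.5% of all windows. The GC content of the 250 bases was 33.6% for MMP7 and 34.4% for MMP10, 56.8% for MMP14, 64.8% for TIMP1 and 72.4% for TIMP3, with a median of 58.0% over all windows. The matches are letters in a window and not measured binding sites.

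TIMP1, which inhibits most secreted MMPs, was the most abundant member in both libraries. The gene (ENSG00000102265, chromosome X, 47582408 to 47586789, hg38) has a canonical transcript of 769 bases in 6 exons, the shortest of the 10. It had 633 Nanopore counts, 1569.8 CPM (1450.0 to 1697), and 585583 Illumina counts, 3054 CPM (3046 to 3062). It was 1.95-fold higher by Illumina (1.80 to 2.107), and the log2 Nanopore/Illumina ratio, with 1 CPM added to each value, stood at −0.96. The adjusted p was 4.86e-77 by an exact conditional binomial test (Benjamini-Hochberg over the 12414 genes whose mean reached 5 CPM). At the Illumina share, 1231 counts would have stood in the Nanopore library in place of 633.

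TIMP2, the inhibitor that also links MMP14 to the proenzyme of MMP2 at the cell surface, lay close to equal. The gene (ENSG00000035862, chromosome 17, 78852977 to 78925387) had 25 Nanopore counts, 62.0 CPM (40.1 to 91.5), and 8441 Illumina counts, 44.02 CPM (43.1 to 44.97). The log2 ratio of 0.48 did not pass the exact binomial test (adjusted p = 0.201). TIMP3, an inhibitor that binds to the extracellular matrix (ENSG00000100234, chromosome 22, 32801705 to 32863041), had 18 Nanopore counts, 44.6 CPM (26.5 to 70.5), and 7723 Illumina counts, 40.3 CPM (39.4 to 41.2). The log2 ratio of 0.14 did not pass the exact binomial test either (adjusted p = 0.835). For TIMP2 the interval of the Nanopore/Illumina CPM ratio ran from 0.911 to 2.08 and for TIMP3 from 0.656 to 1.75, and differences inside these bounds are beyond what this depth can show.

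MMP14, the membrane-anchored collagenase also called MT1-MMP, was the only member protease with more than a single Nanopore count. The gene (ENSG00000157227, chromosome 14, 22836560 to 22849041) has a canonical transcript of 3701 bases in 10 exons and overlaps no other annotated gene. It had 24 Nanopore counts, 59.5 CPM (38.1 to 88.6), and 29684 Illumina counts, 154.8 CPM (153.1 to 156.6). It was 2.60-fold higher by Illumina (1.75 to 4.06). On the log2 scale the difference was −1.36 (adjusted p = 3.03e-07, exact binomial test).

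Of the 4 members that reached a mean of 5 CPM, 2 were therefore higher by Illumina (TIMP1 and MMP14), 0 were higher by Nanopore and 2 did not pass the test. Of all 12414 tested genes 27.2% were higher by Illumina and 20.2% by Nanopore. None of the 4 was also 4-fold different, a call made for 7.31% of tested genes toward Illumina and 12.9% toward Nanopore. The median log2 ratio of the 4 was −0.41, and that of all tested genes was −0.42. When all 27972 genes with any count were tested, the 10 members gave the same 2 calls toward Illumina and 0 toward Nanopore, against 10.5% and 11.6% of those genes. With a 4-fold ratio also required none of the 10 was called, against 2.98% toward Illumina and 7.55% toward Nanopore.

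**Figure D1:**
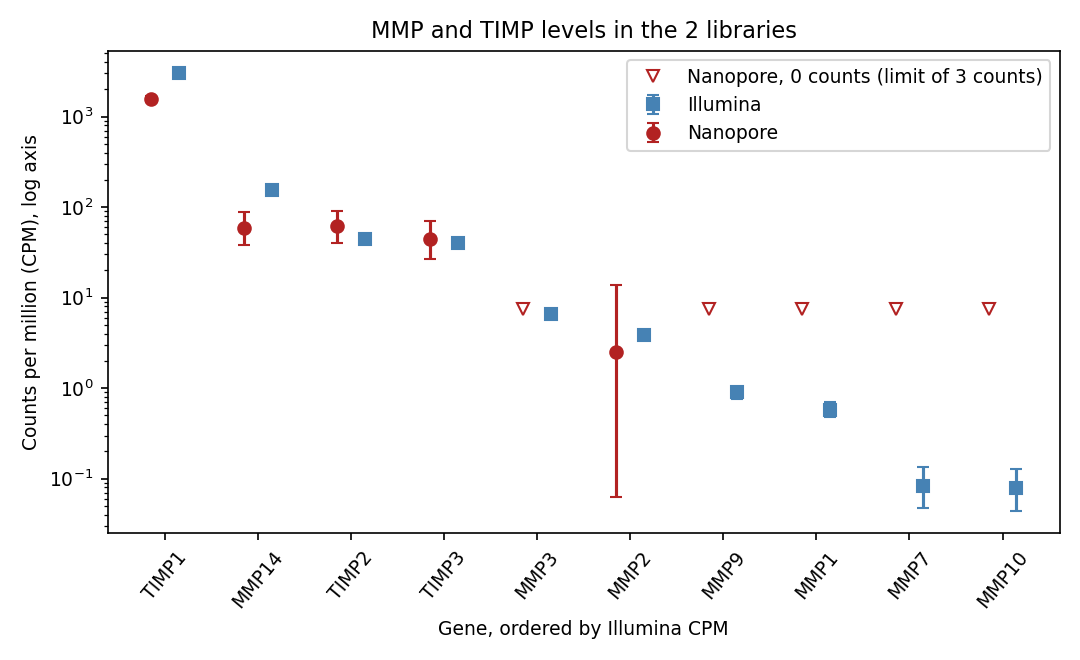
Levels of the 10 members in CPM on a log axis, with Nanopore as circles and Illumina as squares, and bars for 95% exact counting intervals (1 library each). Open triangles mark members with 0 Nanopore counts at the 7.44 CPM that 3 counts stand for. TIMP1 stands at 1569.8 and 3054 CPM, and MMP14, TIMP2 and TIMP3 lie from 40.3 to 154.8 CPM.

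The remaining 6 proteases were rare in both libraries. The genes MMP1, MMP3, MMP7 and MMP10, lie in the MMP cluster on chromosome 11, all on the minus strand. MMP3, stromelysin-1, which cuts basement membrane proteins and activates other MMPs (ENSG00000149968, 102835801 to 102843609), had 1258 Illumina counts, 6.56 CPM (6.20 to 6.93), and 0 Nanopore counts. Its neighbour MMP1, interstitial collagenase (ENSG00000196611, 102789401 to 102798160), had 111 Illumina counts, 0.579 CPM (0.476 to 0.697), and 0 by Nanopore. MMP7, matrilysin (ENSG00000137673, 102520508 to 102530750), had 16 Illumina counts, 0.0834 CPM (0.0477 to 0.136), and 0 by Nanopore. MMP10, stromelysin-2 (ENSG00000166670, 102770502 to 102780628), had 15 Illumina counts, 0.0782 CPM (0.0438 to 0.129), and 0 by Nanopore. These 4 genes of the cluster thus spanned from 15 to 1258 counts in the same Illumina library.

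Both gelatinases, which cut denatured collagen and type IV collagen, were also low. MMP2 (ENSG00000087245, chromosome 16, 55389700 to 55506691) had 1 Nanopore count, 2.48 CPM (0.0628 to 13.8), and 749 Illumina counts, 3.91 CPM (3.63 to 4.20). MMP9 (ENSG00000100985, chromosome 20, 46008908 to 46016561) had 0 Nanopore counts and 172 Illumina counts, 0.897 CPM (0.768 to 1.04). All 10 members were detected by Illumina and 5 by Nanopore. A count of 0 by Nanopore allows up to 7.44 CPM, taken as 3 counts, and every member at 0 was below that level in Illumina CPM. At the Illumina share, MMP3 would have had 2.65 Nanopore counts, and MMP9, MMP1, MMP7 and MMP10 between 0.0315 and 0.362. In CPM the absence of these 5 from the Nanopore table is therefore not a detectable difference. Expected in the same way from Illumina counts thinned without replacement to the Nanopore total, 6.30 members would have been detected. After division by length, described below, the upper bound of the MMP3 log2 ratio depended on the length. It was −0.0651 by union exonic, 0.0539 by mean transcript and 0.715 by canonical length, so by union length alone it lay below 0.

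The order of the members was compared per transcript length. A Nanopore read stands for an RNA strand whatever its length, whereas a long transcript gives more Illumina fragments, so Illumina counts were divided by the length of the Ensembl canonical transcript and scaled to a total of 1000000 (TPM). On that scale TIMP1 was at 6155 TPM (6139 to 6171), MMP14 at 64.8 (64.1 to 65.6), TIMP2 at 18.7 (18.3 to 19.1) and TIMP3 at 13.6 (13.3 to 13.9). MMP3 followed at 5.58 TPM (5.28 to 5.90), then MMP2 at 1.72 (1.60 to 1.85), MMP9 at 0.595 (0.510 to 0.691) and MMP1 at 0.455 (0.374 to 0.548). MMP7 at 0.116 TPM (0.0661 to 0.188) and MMP10 at 0.0689 (0.0386 to 0.114) came last, and their levels did not differ beyond counting error. With union exonic length TIMP3 (23.7 TPM) stood above TIMP2 (19.2), and MMP10 (0.120) above MMP7 (0.0974), so those neighbours have no fixed order. In the Nanopore library TIMP1 came first, and TIMP2, MMP14 and TIMP3 had overlapping intervals.

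**Figure D2:**
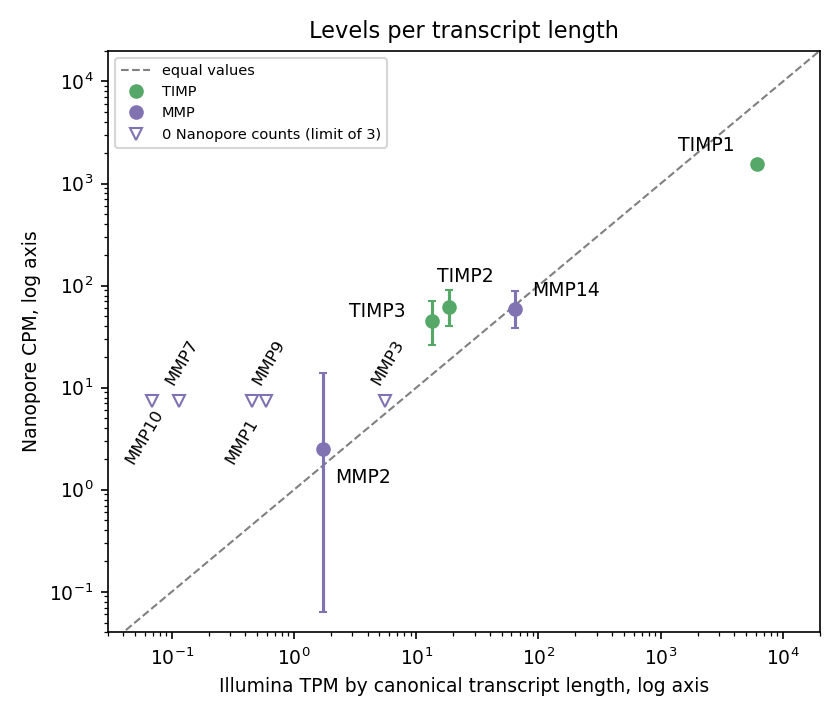
Nanopore CPM against Illumina TPM by canonical transcript length for the 10 members, both on log axes, with 95% exact counting intervals and open triangles at 7.44 CPM for 0 Nanopore counts. The interval of MMP14 crosses the line of equal values, TIMP2 and TIMP3 lie above it and TIMP1 lies below it.

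Division by length moved the members apart. The log2 ratio of TIMP1 went from −0.96 to −1.97, as 1569.8 CPM stood against 6155 TPM. MMP14 went from −1.36 to −0.12, with an exact binomial adjusted p of 0.913, so its call was lost on this scale. By mean transcript length it was called (−0.73, exact binomial adjusted p = 0.0251). TIMP2 went from 0.48 to 1.68 and TIMP3 from 0.14 to 1.65, with exact binomial adjusted p-values of 4.42e-06 and 0.000157, both higher by Nanopore. After each of 3 divisions by length TIMP1 was called higher by Illumina and TIMP2 and TIMP3 higher by Nanopore, whereas in CPM neither TIMP2 nor TIMP3 was called. This division raised the median log2 ratio of all tested genes from −0.42 to 0.48. Relative to that median MMP14 and TIMP1 lay below it and TIMP2 and TIMP3 above it.

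**Figure D3:**
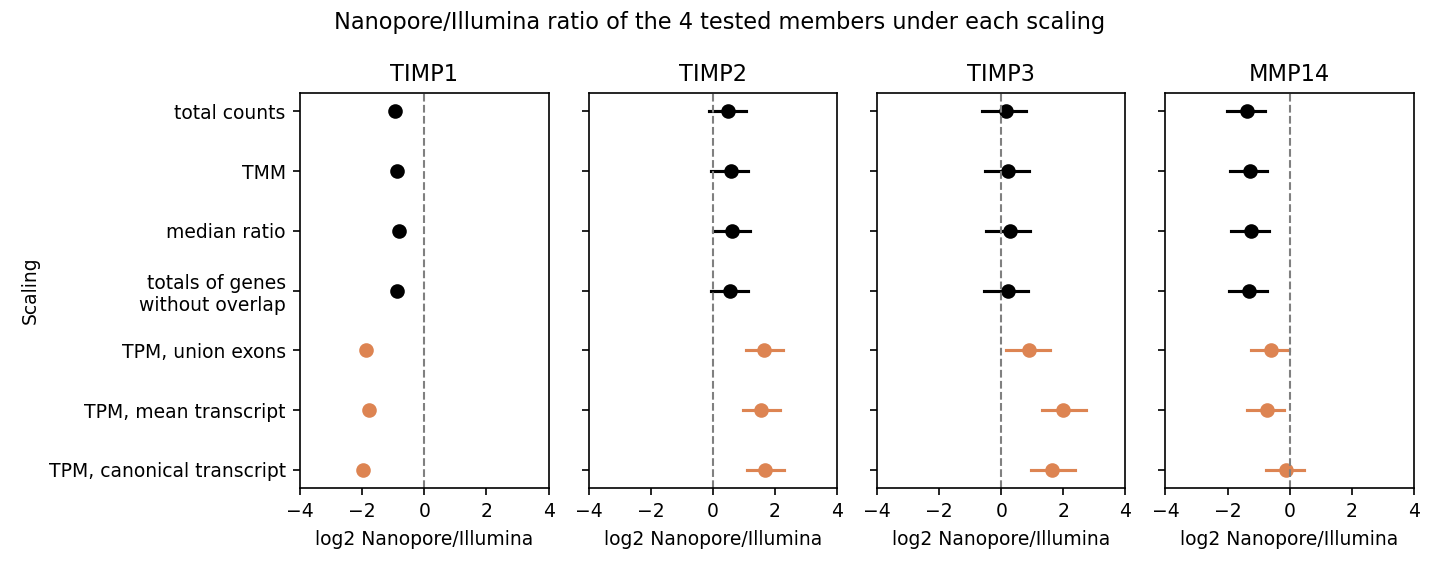
Log2 Nanopore/Illumina ratio of TIMP1, TIMP2, TIMP3 and MMP14 (points) with 95% exact counting intervals (lines) under 4 scalings of the library totals (black) and 3 divisions of the Illumina counts by length (orange). TIMP1 stays below 0 in all 7, and TIMP2 and TIMP3 have intervals above 0 only after division by length.

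Ratios between members within a library do not depend on how the libraries are scaled. MMP14 and TIMP2, which act together in the activation of MMP2, stood at 24 to 25 counts by Nanopore, a ratio of 0.960 (0.525 to 1.75). By Illumina the ratio was 3.52 (3.43 to 3.60) in counts and 3.47 (3.39 to 3.56) per canonical length. These canonical transcripts are of nearly the same length, 3701 and 3652 bases. By union and mean transcript length the ratio was 4.72 and 4.89. The Nanopore interval did not reach any of these Illumina values. The ratio of TIMP1 to MMP14 was 26.4 (17.6 to 41.5) by Nanopore, and by Illumina 19.7 (19.5 to 20.0) in counts. Per canonical length it was 94.9 (93.8 to 96.1), by union length 63.1 and by mean transcript length 53.9. TIMP2 to TIMP3 was 1.39 (0.728 to 2.70) by Nanopore, and by Illumina 1.09 (1.06 to 1.13) in counts and 1.38 (1.33 to 1.42) per canonical length. By union length TIMP2 was at 19.2 and TIMP3 at 23.7 TPM, and by mean transcript length at 20.3 and 10.5. This ratio therefore depends on the length chosen, as do the others given per length. Among the proteases MMP3 exceeded MMP1 by 12.3-fold per canonical length in the Illumina library (10.1 to 15.02), and MMP14 exceeded MMP3 by 11.6-fold (11.0 to 12.3). By union length MMP14, MMP3 and MMP1 were at 90.7, 9.58 and 0.573 TPM, and by mean transcript length at 99.3, 8.83 and 0.410.

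TIMP1 and TIMP3 lie inside genes of the synapsin family, which code for proteins of synaptic vesicles, and the count of the host gene relative to the inhibitor differed between the libraries. TIMP1 lies wholly inside SYN1, on the opposite strand, and shares no exonic base with it. SYN1 had 633 Nanopore counts, exactly as many as TIMP1, and 249 Illumina counts, 0.0425% of the TIMP1 count. TIMP3 lies in the same way inside SYN3. SYN3 had 18 Nanopore counts, again the same number as TIMP3, and 16 Illumina counts, 0.207% of the TIMP3 count. The log2 Nanopore/Illumina ratios of SYN1 and SYN3 were 9.42 and 5.40.

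Inside TIMP2 lie 4 other genes, and for 2 of them the Nanopore count was also close to that of the inhibitor. CEP295NL lies inside TIMP2 on the same strand, where 3 of the 10 merged TIMP2 exons lie within it and 224 exonic bases are shared. It had 18 Nanopore counts, 72.0% of the TIMP2 count, and 180 Illumina counts, 2.13%. The lncRNA gene ENSG00000267601, on the opposite strand, shares 367 exonic bases with TIMP2. It had 19 Nanopore counts, 76.0% of the TIMP2 count, and 472 Illumina counts, 5.59%. For MMP2, the overlapping gene ENSG00000279030 had 1 Nanopore count, as MMP2 did, and 10 Illumina counts. MMP9 overlaps the antisense lncRNA gene SLC12A5-AS1, which had 0 Nanopore and 35 Illumina counts, 20.3% of the MMP9 count.

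**Figure D4:**
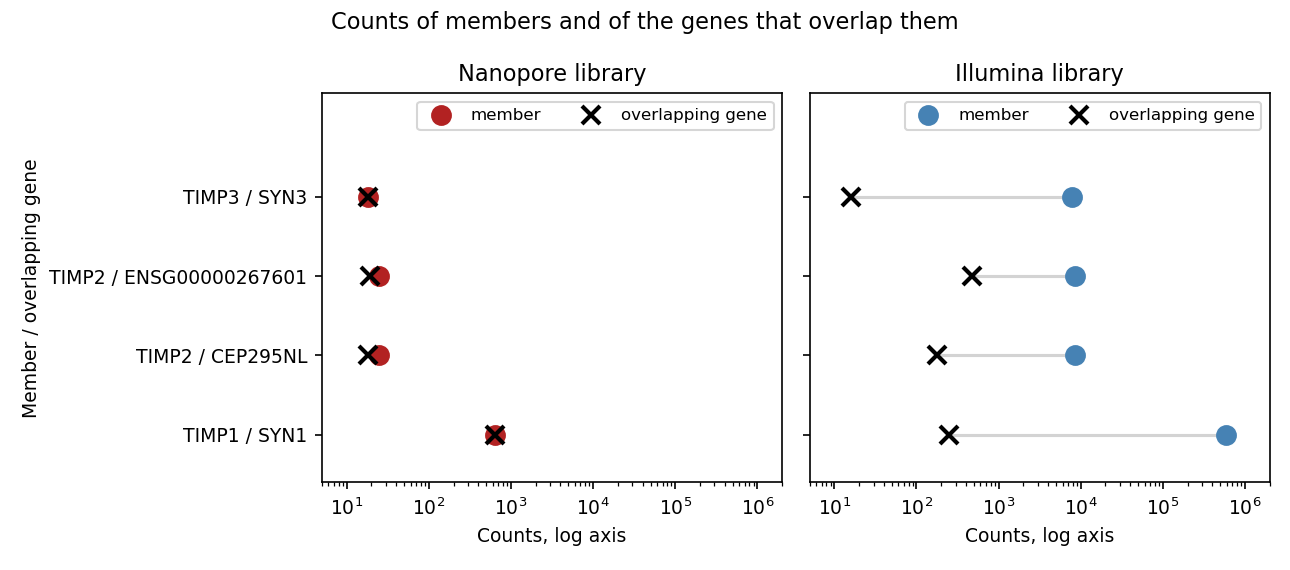
Counts (log axis) of TIMP1, TIMP2 and TIMP3 (circles) and of the genes that overlap them (crosses) in the Nanopore library, left, and the Illumina library, right. The symbols coincide for SYN1 and SYN3 by Nanopore and lie 1 to 4 decades apart by Illumina.

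Not every overlapping gene matched its member. The other genes inside TIMP2, ENSG00000267491 and ENSG00000279339, had 0 Nanopore counts and 0 and 3 Illumina counts. ENSG00000283743, a lncRNA gene that also contains TIMP1 on the opposite strand, had 1 Nanopore and 8 Illumina counts. WTAPP1, a pseudogene on the opposite strand that contains MMP1 and MMP10 and reaches into MMP3, was at 0 in both libraries. In all, 8 of the 10 members share bases with another annotated gene, MMP7 and MMP14 being the exceptions, and 12 such genes were in the tables. Of the 12414 tested genes only 2810 were found to overlap no other annotated gene, so overlap is not particular to the members. Across the annotation, 74 genes with at least 10 Nanopore counts lie inside exactly 1 other gene, on the opposite strand and without a shared exonic base, TIMP3 among them. The host's Nanopore count was at least that of the inner gene in 71 of the 74 pairs (95.9%) and equal to it in 13, whereas its Illumina count was at least that of the inner gene in 27 (36.5%). How reads that overlap several genes were assigned is not given in the sources used here, and its part in these counts was not tested.

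Apart from MMP19 and MMP24, the rest of the MMP family was rare or undetected. Of 16 other MMP genes, Illumina detected 10 and Nanopore 6, and MMP8, MMP12, MMP21, MMP26 and MMP27 were listed at 0 in both. MMP19 led by Illumina with 3201 counts, 16.7 CPM, and had 1 Nanopore count. It reached the mean of 5 CPM only through Illumina. The exact binomial test called it higher by Illumina (adjusted p = 0.0402). In the same test the call was lost under TMM (adjusted p = 0.0565) and median-ratio scaling (0.0653) and without the filter (0.0773). It was also lost by union (0.330), mean transcript (0.239) and canonical length (0.504). MMP24, a membrane-type MMP, had 12 counts by Nanopore and 978 by Illumina and was higher by Nanopore, by 2.33 on the log2 scale (adjusted p = 1.82e-05, exact binomial test). Its antisense neighbour MMP24OS, which shares 806 exonic bases with it and was named after its values were seen, had 15 and 3352 counts. MMP28 had 1 Nanopore and 488 Illumina counts, and MMP15 had 1 and 319. The fourth inhibitor, TIMP4, had 0 Nanopore and 2 Illumina counts.

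Partners and regulators of MMP activity ranged from abundant to absent. Of 18 listed genes 11 were detected by Nanopore and 9 were tested, 5 were higher by Illumina, 0 by Nanopore and 4 did not pass, with a median log2 ratio of −1.34. Over all tested genes 27.2% were called toward Illumina and 20.2% toward Nanopore, and the median was −0.42. The most abundant were CAV1, the coat protein of caveolae (254 Nanopore and 171189 Illumina counts), BSG, the MMP inducer also called EMMPRIN (123 and 90666), CD44, a hyaluronan receptor that is cut by MMP14 (79 and 80739), and the matrix protein THBS1 (52 and 63050). All 4 were among those higher by Illumina, at log2 ratios of −0.50, −0.63, −1.10 and −1.34. With the Illumina counts divided by canonical transcript length, 2 of the 9 were higher by Nanopore and 1 by Illumina, with a median of 0.16, and of all 12350 genes tested on that scale 3880 and 1218 were. By mean transcript length 0 of the 9 were higher by Nanopore and 4 by Illumina, with a median of −0.68, against 2926 and 1951 of all 12350. LCN2, which binds MMP9, was listed at 0 in both.

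Of 24 ADAM and ADAMTS genes, related metalloproteases that shed surface proteins or cut proteoglycans, 7 were tested, 4 were higher by Illumina and 0 by Nanopore (27.2% and 20.2% of all tested genes), with a median of −0.79. ADAM15 led (58 Nanopore and 46088 Illumina counts, log2 ratio −0.74), followed by ADAM9 (32 and 29835, −0.96), ADAM10 (19 and 15789, −0.79) and ADAM17, the TNF sheddase (21 and 6730, 0.56). ADAM17 did not pass the exact binomial test (adjusted p of 0.179). The other gene called higher by Illumina was ADAM19, named after its values were seen, with 2 Nanopore and 4115 Illumina counts. It reached the mean of 5 CPM only through Illumina, at 21.5 CPM against 4.96 by Nanopore (exact binomial adjusted p = 0.0364). Under TMM scaling 2 of the 7 were higher by Illumina, as were 2968 of all 12460 genes. After division by canonical length 0 were higher by Illumina and 2 by Nanopore, against 1218 and 3880 of all 12350.

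The transcription factors that act on MMP promoters were divided. Of 14 tested factors 5 were higher by Nanopore and 4 by Illumina (20.2% and 27.2% of all tested genes), with a median of −0.36. FOS, which with JUN forms AP-1, had 268 Nanopore counts, 665 CPM, and 24388 Illumina counts, 127 CPM, a log2 ratio of 2.38. JUNB had 90 and 7572 counts (2.47), JUND 53 and 3574 (2.75), FOSB 24 and 1694 (2.62) and JUN 13 and 2876 (1.05). These 5 AP-1 genes were those higher by Nanopore, and the first 4 of them were more than 4-fold higher, a call made for 12.9% of all tested genes. FOS, JUN and JUND overlap no other annotated gene, whereas JUNB and FOSB do. FOSB is among the 74 nested genes described above, and its host ERCC1, named after its values were seen, had 62 Nanopore and 40314 Illumina counts. The ratios of FOS, JUNB, JUND and FOSB were also above 0 under TMM scaling and after each of 3 divisions by length, between 1.92 (JUNB) and 3.71 (FOSB). JUN passed narrowly in CPM (exact binomial adjusted p = 0.0411) and was not called when all genes with any count were tested (0.0789). Under TMM scaling and after each of 3 divisions by length JUN was called higher by Nanopore. The AP-1 subunits FOSL1 (18 and 13855 counts, log2 ratio −0.68) and FOSL2 (14 and 9033 counts, −0.43, named after its values were seen) did not pass the test. ETS1 (5 and 14417 counts) and ETV5 (4 and 11229) were more than 4-fold higher by Illumina, at log2 ratios of −2.51 and −2.45, and SP1, the GC-box factor, was called higher by Illumina at 3 and 14940 counts. After division by canonical length the exact binomial adjusted p-values of these 3 were 0.356, 0.212 and 0.396. By mean transcript length they were 0.0247, 1.03e-08 and 0.102, and by union length 0.116, 0.0655 and 0.0352. By canonical length 7 of the 14 factors were higher by Nanopore and 0 by Illumina, against 3880 and 1218 of all 12350 genes.

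Substrates of MMPs were mostly higher by Illumina. Of 22 listed genes 18 were tested, 13 were higher by Illumina, 1 by Nanopore and 4 did not pass, with a median of −1.57. Of all tested genes 27.2% were called toward Illumina and 20.2% toward Nanopore, with a median of −0.42. The laminin chain genes LAMB3 (64 Nanopore and 81075 Illumina counts), LAMB1 (37 and 55337) and LAMC1 (43 and 43232) had log2 ratios of −1.41, −1.64 and −1.07. FN1 and DAG1 were more than 4-fold higher by Illumina, at log2 ratios of −2.25 and −2.20. TNC, with 2 Nanopore and 4557 Illumina counts, and COL7A1, with 0 and 4634, were called higher by Illumina. Both reached the mean of 5 CPM only through Illumina, at 23.8 and 24.2 CPM against 4.96 and 0 by Nanopore. By canonical length the log2 ratios were 0.16 for FN1, 0.16 for TNC, −0.43 for DAG1 and −2.34 for COL7A1. The gene higher by Nanopore was LAMA5 (51 and 11109 counts, log2 ratio 1.11), named after its values were seen. After division by canonical length 4 of the 18 were higher by Nanopore and 2 by Illumina, with a median of 0.16, against 3880 and 1218 of all 12350 genes. By mean transcript length 1 was higher by Nanopore and 5 by Illumina, with a median of −0.54. Of all 12350 genes 2926 and 1951 were so called, with a median of 0.07.

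**Figure D5:**
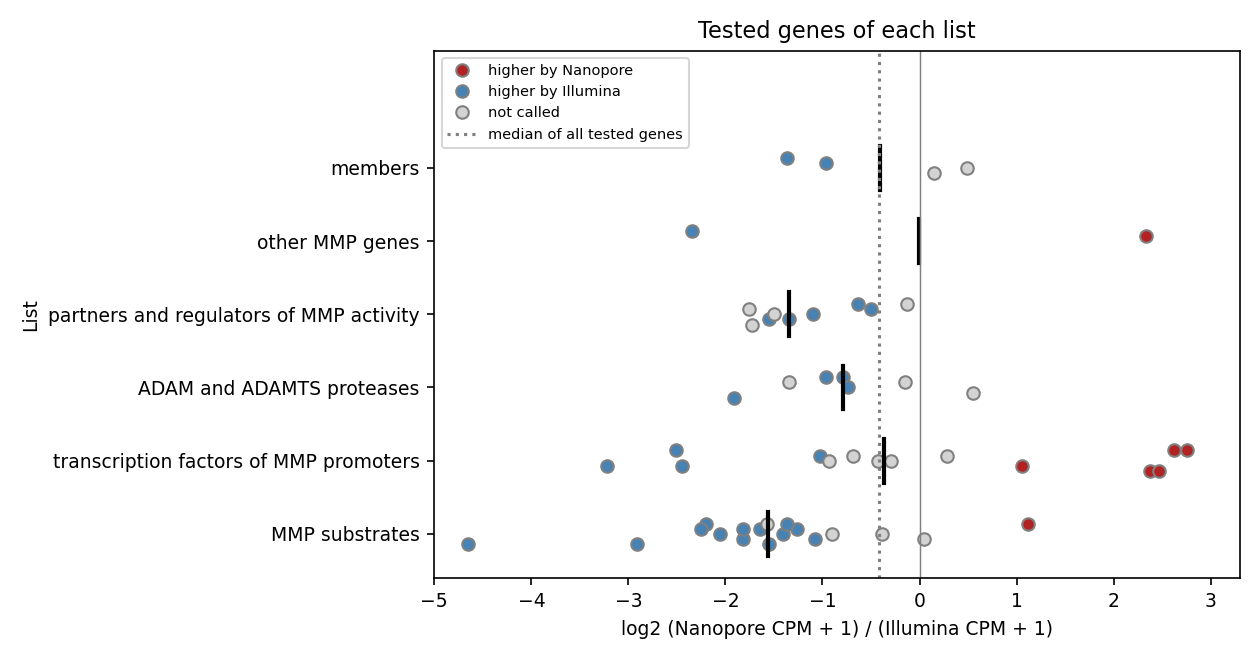
Log2 ratio of Nanopore CPM + 1 over Illumina CPM + 1 for each tested gene of the members and 5 related lists, coloured by call (exact binomial test, adjusted over all tested genes), with a bar at each list's median and a dotted line at the median of all tested genes, −0.42. FOS, JUNB, JUND and FOSB form the group between 2.38 and 2.75 in the row of transcription factors.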

How the data were processed

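Gene counts of 1 Nanopore direct RNA and 1 Illumina TruSeq stranded mRNA library were analysed. The authors deposited whole-number counts per Ensembl gene, without normalization. The submitters' processing notes name hg38, minimap2 2.11-r797, HISAT2 2.1.0 and featureCounts, with no role or order. The annotation, the strand setting and the treatment of reads that overlap several genes are not given in the sources used here. Whether the Nanopore reads were corrected is not stated either, and the tag 'talc' in the label of their counts is not explained. Names, positions and lengths came from GENCODE release 44 (hg38), matched by identifier (58207 of 58735), and promoters from RefSeq (GRCh38.p14).

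Dividing by the library total and scaling to 1000000 gave CPM. The log2 ratio has Nanopore over Illumina, each with 1 CPM added, so differences of rare genes come out too small. A replicate model could not be fitted to single libraries. Where a gene's mean reached 5 CPM, its share of the summed counts was set against the share of the totals in an exact binomial test (two-sided, SciPy 1.17.1), adjusted by Benjamini-Hochberg over all such genes and called under 0.05. It compares these 2 libraries, not the platforms. The method was tested on simulated data. Alternatives were TMM (edgeR 4.0.16), median-ratio scaling, other pseudocounts and filters, and division of Illumina counts by 3 kinds of length.

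The members and lists were chosen with earlier results of these data known. All members are named. Of other lists, genes called with a 4-fold ratio and the 4 with the highest mean CPM may be named, and overlapping genes with at least 10 counts in either library. A gene that this rule names is not reported here. Overlapping genes below that, those at 0 and the comparison of 74 nested pairs were added after the values were seen, as was scaling by genes that overlap no other gene.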

Additional observations from a re-analysis of the deposited data

How the results depend on the processing

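With 1 library per platform no library could be left out, and no paired analysis was possible because each platform has only 1 sample. TIMP1, TIMP2, TIMP3 and MMP14 kept the sign of their log2 ratio under each alternative. The untested MMP2, with 1 Nanopore count, went from −0.50 to 0.10 by union and 0.35 by canonical length. NFKB1, a listed factor named after its values were seen, was called higher by Illumina in CPM (log2 ratio −1.03, exact binomial adjusted p = 0.0125) and higher by Nanopore by union length (1.41, 0.00661). The calls of TIMP1 and MMP14 toward Illumina held under TMM, median-ratio scaling, pseudocounts of 0.1 and 5 CPM, and library totals over genes without overlap, the last chosen after the data were seen. Division of the Illumina counts by length moved most of what moved, and its effect on the ratio follows from the lengths themselves. By union exonic length the exact binomial adjusted p (log2 ratio) was 0.0802 (−0.60) for MMP14, 7.04e-06 (1.64) for TIMP2 and 0.0464 (0.88) for TIMP3. By mean transcript length it was 0.0251 (−0.73) for MMP14, so its call held there, 1.88e-05 (1.56) for TIMP2 and 6.41e-06 (1.99) for TIMP3. By canonical length it was 0.913 (−0.12) for MMP14, 4.42e-06 (1.68) for TIMP2 and 0.000157 (1.65) for TIMP3. Members called higher by Nanopore numbered 2 of 4 in place of 0 with each of the 3 lengths, where 3856 (union), 2926 (mean) and 3880 (canonical) of all 12350 tested genes were called so, in place of 2506 of 12414. Members called higher by Illumina numbered 1 in place of 2 by union or canonical length, where 1314 and 1218 of all 12350 genes were called so. Where only genes without overlap were tested, TIMP1, TIMP2 and TIMP3 dropped out. MMP14 was then the only member tested and was called higher by Illumina, as were 879 of those 2810 genes. By union length the related genes (50 tested of 95) gave 21 calls toward Nanopore in place of 7 and 6 toward Illumina in place of 27, while calls toward Illumina over all genes numbered 1314 in place of 3382. The TIMP share of the Illumina member signal was 98.2%, 98.0% and 98.8% by union, mean and canonical length, in place of 94.9%. Thinned to the Nanopore total, the Illumina library would be expected to detect 6.30 members in place of 10. The median log2 ratio of all tested genes was −0.28 under median-ratio scaling, and 0.42, 0.07 and 0.48 by union, mean and canonical length, in place of −0.42. Nanopore depth limits the members: MMP14, TIMP2 and TIMP3 rest on 18 to 25 counts each, and 6 members were below the filter.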
